A study of Helianthus annuus with 9 samples.

Results

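Small RNAs of sunflower seeds (Helianthus annuus) were compared between 37 days and 7 days, the late and the early end of a series that also has a sample set at 22 days. All seeds came from L-1-OL-1, a high oleic acid line grown in the field, and the groups differ by collection day alone in the labels, with 3 libraries each, so 6 of the 9 libraries enter the comparison. The sources used here do not give the starting event for the count of days, or say whether libraries of one day come from different plants. The p-values therefore measure the spread between these libraries, which may be technical. Every small RNA entry was taken except the exon, intron and intergenic totals, which gave 8473 of 8476 entries. Known miRNA entries were summed by family number, which left 8196 small RNAs: 39 miRNA families, 49 predicted miRNAs, 7735 siRNAs and 373 models of structural RNA. Small RNA libraries hold no messenger RNA, so the tissue label has no marker check. In whole seeds, fewer cells of a type and less RNA per cell cannot be told apart.

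In plants, a miRNA is cut from a folded precursor by a Dicer-like enzyme and guides an Argonaute protein to messenger RNAs with a nearly complementary site. Most conserved families target transcription factors or parts of the hormone and silencing machinery, and several are known from other plants to act in embryo patterning and in the passage between growth phases. The siRNAs come from long double-stranded RNA. Those of length 21 and 22 mostly act on transcripts, while those of length 24, often with A as first base, guide DNA methylation at transposons and repeats.

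Sequences are shown for the sets on which the results turn, in DNA letters as deposited. The first set is a run of overlapping siRNAs that together held more reads over the 6 libraries than any other overlapping set, and every tested member was higher at day 37. Capitals mark the stretch they share.
novel_sir17151: taaacatccATTGAGCCTAAGa
novel_sir11739: taaacatccATTGAGCCTAAG
novel_sir17197: ATTGAGCCTAAGatgtataatt
novel_sir13922: aacatccATTGAGCCTAAGatg
novel_sir17150: aacatccATTGAGCCTAAGa
novel_sir11880: ATTGAGCCTAAGatgtataat
The second set belongs to the largest set of overlapping siRNAs by number of sequences, nearly all of length 23 or 24, and every tested member was lower at day 37. Capitals mark a stretch that the sequences below have in common.
novel_sir9492: ataATCCGATCTTGAACACCCCTa
novel_sir9485: attATCCGATCTTGAACACCCCTt
The 24-nt siRNA with the largest rise and those with the largest falls at length 22 and 21 follow, with the first base in capitals.
novel_sir15189: Ctccattaggaactagctagcaac
novel_sir7554: Gaaatttcggatacggattcgg
novel_sir839: Aacccgaccggaagagtctcg
The predicted miRNAs with the largest rise and the largest fall are shown with the seed, bases 2 to 8, in capitals.
novel_mir69: gGTGATCGggtgagacgtatgtacc
novel_mir22: aTGGAATGtgtggcttcgaacaaa

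A library held 31011803 to 33952138 reads in all, of which 2208822 to 2327154 at day 7 and 3748994 to 4050364 at day 37 fell in small RNA entries. Abundances are CPM, reads per 1000000 of a library size scaled by TMM factors, which brought the effective sizes to 2978795 to 3217427 at day 7 and 2601822 to 3004195 at day 37. Of the 7132 small RNAs tested, 79.5% passed an adjusted p of 0.05 in edgeR, 33.2% higher at day 37 (2369) and 46.3% lower (3304). The libraries of the days did not overlap for 81.5% of them. The median log2 change was -0.58, so single changes below are to be read against that value. With library totals alone in place of TMM factors the median was -1.51 and the calls split into 1604 higher and 4131 lower, which is 28.0% higher among those called against 41.8%. With totals that leave out structural RNA the split was 1768 and 3911 (31.1%).

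The composition of the libraries differed between the days, and in 12 of 14 classes the libraries did not overlap. The 24-nt siRNAs went from 19.4% ± 0.624 to 10.2% ± 0.508 of small RNA reads, which are those in small RNA entries (SD, n = 3). Known miRNAs went from 16.9% ± 0.992 to 9.25% ± 1.35, and 23-nt siRNAs from 5.14% ± 0.240 to 3.02% ± 0.138. Each of these classes was lower in all 3 day 37 libraries than in any day 7 library. Fragments of ribosomal RNA went from 3.23% ± 0.397 to 15.3% ± 3.68, with 19.5% in day 37 replicate 1 and 12.97% and 13.3% in the other libraries of that day. The 21-nt siRNAs went from 31.1% ± 0.466 to 35.5% ± 2.45, and predicted siRNAs of 25 to 30 nt from 0.410% ± 0.0270 to 1.48% ± 0.257. The 22-nt siRNAs, at 20.5% ± 0.186 to 19.7% ± 1.17, and the Rfam precursor models of miRNAs overlapped between the days (exact permutation p = 0.4 for both). For the other 12 classes the permutation test (exact, two-sided) gave p = 0.1, which 3 libraries against 3 cannot go below, and 0.117 adjusted over the 14 classes.

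Small RNA entries held a larger part of all reads at day 37, so some directions depend on the denominator. Of all reads in a library, known miRNAs held 1.19% ± 0.0986 at day 7 and 1.10% ± 0.168 at day 37. The 23-nt siRNAs held 0.360% ± 0.00650 and 0.361% ± 0.0181, so they were not lower by this measure. The 24-nt siRNAs held 1.36% ± 0.00793 and 1.22% ± 0.0531, and were lower at day 37 by this measure too. Ribosomal fragments went from 0.227% to 1.82% of all reads.

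**Figure D1:**
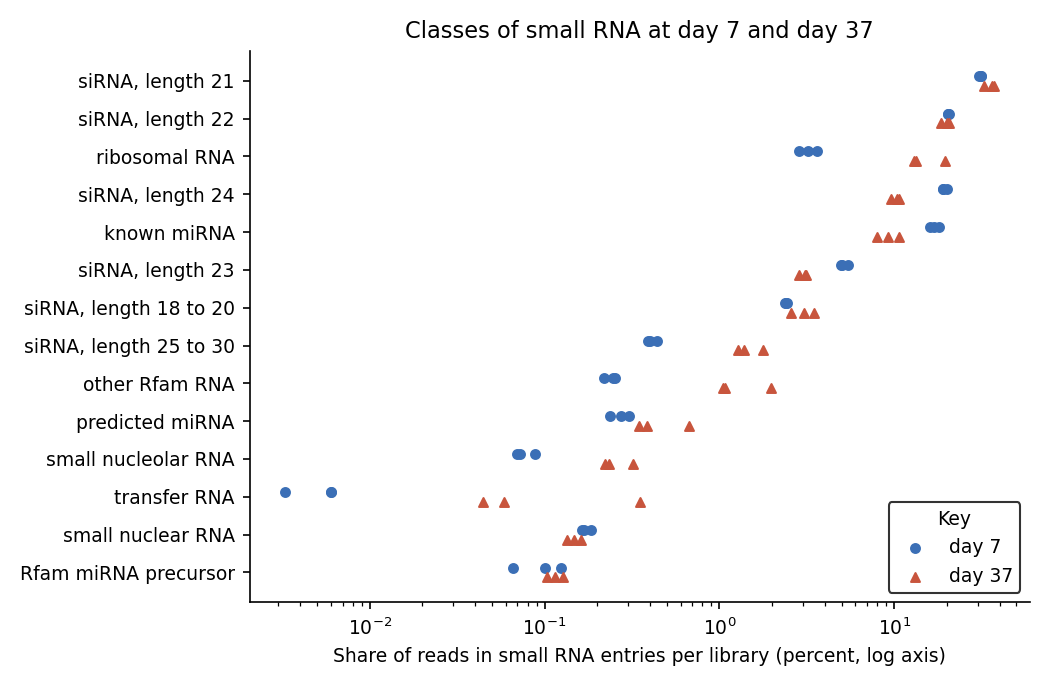
Share of the reads in small RNA entries (percent, log axis) for 14 classes, with 1 point per library, circles for day 7 and triangles for day 37. The 24-nt siRNAs and known miRNAs lie lower at day 37, ribosomal and transfer RNA higher, and day 37 replicate 1 is the highest transfer RNA point.

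Among known miRNAs, the largest families traded places. At day 7, miR396 held 34.4% ± 1.47 of the known miRNA reads and miR166 28.8% ± 1.74. At day 37, miR167 held 22.98% ± 3.16 and miR166 22.8% ± 3.25, while miR396 was down to 3.08% ± 0.838 and miR156 up from 0.434% ± 0.0572 to 8.07% ± 0.604. Of the 39 families 33 were tested, of which 14 were higher, 10 lower and 9 did not pass, beside 33.2% higher and 46.3% lower over all small RNAs. Their median log2 change was 0.11. Family sums are used because single entries are unstable: among 185 pairs of an entry and a day with at least 100 reads in a library, 39 had libraries of that day at least 10-fold apart. Target genes named below are those known from Arabidopsis.

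The phase change pair moved in opposite directions. The miR156 family, which represses SPL transcription factors and keeps plants juvenile, had 1691, 1544 and 1728 reads at day 7 and 23297, 32516 and 31111 at day 37. Every day 37 library was more than 10 times above every day 7 library in raw reads, and the abundance rose 19.4-fold (log2 4.28, SE 0.13, edgeR adjusted p = 2.62e-08). Its near-identical neighbour miR157 had 2461, 2359 and 2698 reads at day 7 and 1995, 2661 and 2626 at day 37 and overlapped between the days (adjusted p = 0.450 in edgeR). The sum of miR156 and miR157 was 8.38-fold higher at day 37, which is the safer value where reads may be shared between them. The miR172 family, which represses AP2-like flowering genes, was scarce, with 59, 64 and 71 reads at day 7 and 50, 39 and 31 at day 37. It was lower at day 37 (log2 -0.52, SE 0.21, edgeR adjusted p = 0.0441), but 41.7% of its reads lay in hairpin entries, and mature entries alone gave -3.10. Without any 1 library other than day 37 replicate 1, miR172 no longer passed, with edgeR adjusted p from 0.0559 to 0.134, and with upper quartile factors the log2 change was -0.25 and did not pass.

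The families follow by the role of their targets. Since 79.5% of all small RNAs were called, 33.2% higher and 46.3% lower, the number called in a list is not read as a result. Of 4 families linked to auxin signalling, 3 rose and 1 fell, and the median log2 change was 1.02. The miR167 family, which targets the auxin response factors ARF6 and ARF8, had 21369, 32279 and 18653 reads at day 7 and 57688, 90251 and 102932 at day 37. The days did not overlap, and miR167 rose 3.85-fold (log2 1.95, SE 0.24, edgeR adjusted p = 9.5e-05). The miR160 family, which targets ARF10, ARF16 and ARF17, rose 2.29-fold, from 655 ± 19.5 CPM at day 7 to 1498 ± 417 at day 37 (adjusted p = 3.87e-04 in edgeR). The miR390 family, which starts trans-acting siRNAs against further ARF genes, rose 1.80-fold (adjusted p = 8.12e-04 in edgeR), with a log2 change of 0.85 for the family and 3.24 for its mature entries alone. With library totals alone the log2 change of miR160 was 0.26 and that of miR390 -0.08, neither past the threshold. The miR393 family, whose targets encode the TIR1 and AFB auxin receptors, went the other way, with 637, 581 and 706 reads at day 7 and 26, 31 and 36 at day 37. That is an 18.6-fold lower abundance (log2 -4.21, SE 0.17, edgeR adjusted p = 8.26e-08), and no day 37 library came near the lowest day 7 library. Day 22 lay between the days for miR393, with 283, 219 and 354 reads.

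Among 9 families that target developmental regulators, 5 rose, 3 fell and 1 did not pass, with a median log2 change of 0.58. The deepest fall was that of miR396, which targets growth-regulating factors, with 126090, 139248 and 130074 reads at day 7 and 12003, 10251 and 9981 at day 37. Its abundance was 10.9-fold lower at day 37 (log2 -3.45, SE 0.13, edgeR adjusted p = 8.02e-08), yet at day 22 it had 178479, 174299 and 235451 reads, above the early libraries. The miR164 family, which targets NAC factors of the CUC group, had 9752, 9527 and 9924 reads at day 7 and 2286, 2621 and 3137 at day 37 and was 3.26-fold lower (log2 -1.70, SE 0.12, edgeR adjusted p = 2.89e-06). It too was highest at day 22, with 23250 to 31487 reads.

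The GRAS factor regulators miR171 and miR170 rose together. The miR171 family had 3838, 3934 and 4103 reads at day 7 and 15402, 16968 and 15184 at day 37, a 4.48-fold rise (log2 2.16, SE 0.07, edgeR adjusted p = 2.93e-08), and miR170, whose sequence is close to it, rose 3.40-fold. Their sum was 4.24-fold higher, and neither overlapped between the days. The miR169 family, which targets NF-YA subunits, rose 7.10-fold from 43.1 ± 6.91 CPM at day 7 to 306 ± 81.6 at day 37 (adjusted p = 4.25e-06 in edgeR), but 66.2% of its reads were in hairpin entries and mature entries alone gave log2 1.71. The miR166 family, which targets the HD-ZIP III factors of leaf and embryo polarity, depended on what was counted. Its family sum was lower (log2 -0.30, SE 0.11, edgeR adjusted p = 0.0292), while mature entries alone were higher by 0.81 (adjusted p = 1.14e-04). Without day 37 replicate 2 or 3 the family sum of miR166 no longer passed, nor did it with upper quartile factors, at -0.028. The miR159 family, which targets GAMYB factors, was called higher at log2 0.58 and miR394, which targets the F-box gene LCR, at 0.91. For miR394 the libraries overlapped, with 385, 461 and 565 reads at day 7 and 369, 762 and 1257 at day 37. Both calls are weak. For miR159 the threshold was missed when any single library other than day 37 replicate 1 was left out, at edgeR adjusted p from 0.0715 to 0.0965, and that of miR394 without the same libraries, with log2 0.40 without day 37 replicate 3. With library totals alone both turned negative, at -0.36 and -0.02. The miR319 family, which targets TCP factors, overlapped between the days and did not pass (log2 -0.32, SE 0.20, edgeR adjusted p = 0.160), although it passed without day 37 replicate 3, at -0.57, with RLE factors, at -0.51, and with library totals alone, at -1.25.

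Of the 4 nutrient families in the list, 1 rose, 2 fell and 1 did not pass, with a median log2 change of -0.49. The miR397 family, which targets laccases, had 103, 146 and 98 reads at day 7 and 744, 709 and 664 at day 37 and rose 6.85-fold (log2 2.77, SE 0.16, edgeR adjusted p = 6.89e-07). The miR399 family, which acts in phosphate starvation by targeting PHO2, had 183, 157 and 181 reads at day 7 and 20, 37 and 32 at day 37, a 5.31-fold fall (log2 -2.39, SE 0.27, edgeR adjusted p = 5.41e-05). For miR398, which targets copper and zinc superoxide dismutases, the log2 change was -0.53 (adjusted p = 0.00216 in edgeR). The fitted median was -0.58 over all small RNAs and 0.11 over the families. With upper quartile factors miR398 no longer passed, at -0.26. The sulfate family miR395 overlapped between the days, at 37.9 ± 8.65 CPM at day 7 and 28.1 ± 9.54 at day 37, but with library totals alone miR395 was called lower, at log2 -1.37.

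Families that target the silencing machinery itself split into 1 rise and 2 falls. The miR168 family, which targets AGO1, rose 1.71-fold from 7858 ± 904 CPM at day 7 to 13431 ± 1381 at day 37 (log2 0.77, SE 0.12, edgeR adjusted p = 3.65e-04), with -0.16 under library totals alone. The miR162 family, which targets DCL1, was 2.46-fold lower, with 1676, 1684 and 1655 reads at day 7 and 705, 518 and 583 at day 37 (log2 -1.30, SE 0.18, edgeR adjusted p = 1.66e-04). The miR403 family, which targets AGO2, had 1040, 1063 and 1118 reads at day 7 and 520, 590 and 608 at day 37 and was 1.68-fold lower (log2 -0.75, SE 0.07, edgeR adjusted p = 1.87e-05). The 3 libraries of each day lay close together for miR403. The single listed trigger of phased siRNAs, miR858, which targets MYB genes, stayed near the threshold at 9980.0 ± 278 CPM at day 7 and 8982 ± 320.3 at day 37 (log2 -0.15, SE 0.07, edgeR adjusted p = 0.0606). It passed when any 1 library but day 37 replicate 2 or 3 was left out, between -0.21 and -0.17. The call on miR858 depended on the scaling: it was lower at -0.34 with RLE factors (edgeR adjusted p = 0.00135) and -1.09 with library totals alone (3.12e-07), and stood at 0.12, not past the threshold, with upper quartile factors.

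Outside the lists, 8 families were tested, of which 3 rose and 5 did not pass. The largest change of any family was that of miR536, for which no target is named here. It had 12, 17 and 33 reads at day 7 and 3547, 8983 and 35728 at day 37, and 10714, 11588 and 6833 reads at day 22. All day 37 libraries lay far above day 7, but their raw reads were themselves 10-fold apart. The fitted log2 change was 9.75, SE 1.09, edgeR adjusted p = 4.7e-05, and 8.36 without day 37 replicate 3, the highest library. The miR3630 family rose 8.32-fold, from 28.4 ± 3.14 CPM at day 7 to 236 ± 38.7 at day 37, and miR4995 rose 7.73-fold on 5, 3 and 6 reads at day 7 and 22, 38 and 38 at day 37.

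**Figure D2:**
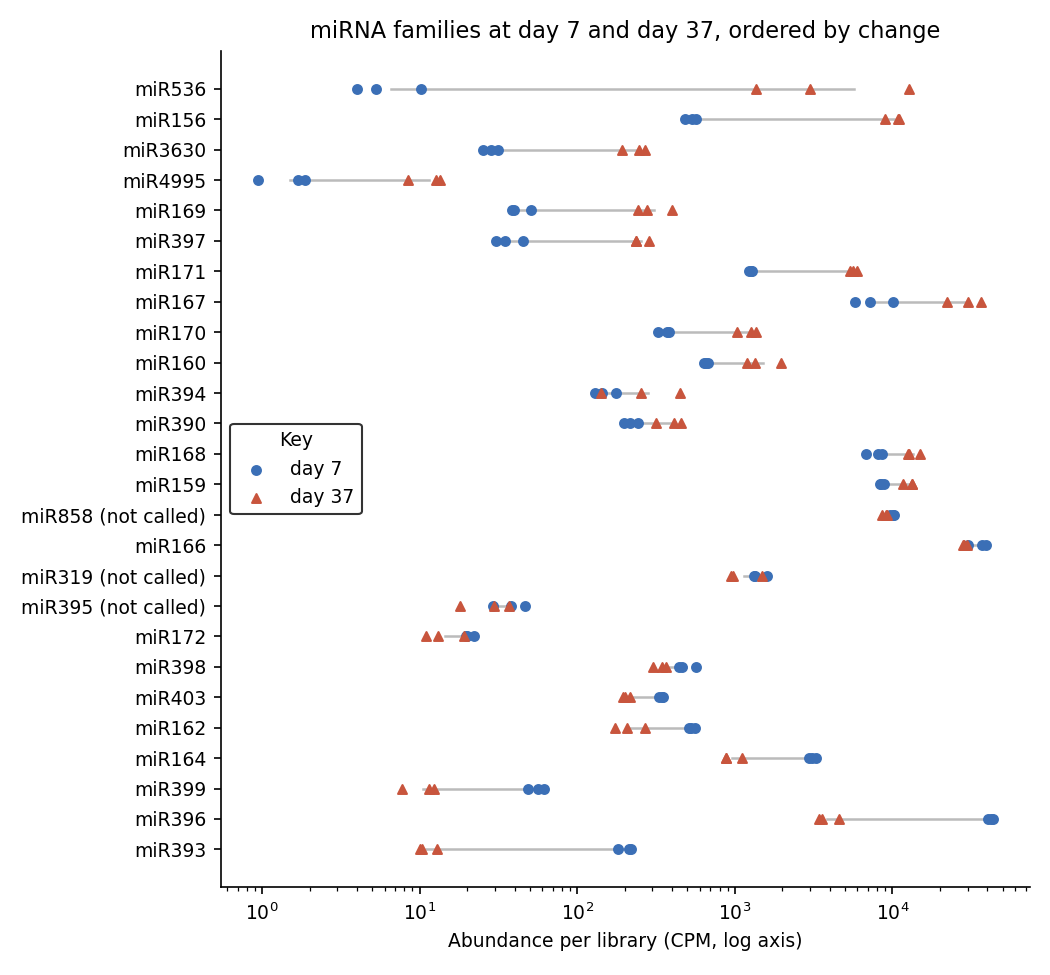
CPM per library (log axis) for the named miRNA families, ordered by fitted log2 change, with circles for day 7, triangles for day 37 and a line between the means. miR536 and miR156 stand at the top and miR393 and miR396 at the bottom, while the points of miR394, miR319 and miR395 overlap between the days.

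The day 22 libraries place these changes in time. Of the 10 families that were lower at day 37, 7 had a day 22 mean above both other days, as did 9.26% of all small RNAs that were lower. Of the 14 that were higher, 10 (71.4%) had a day 22 mean between the days, beside 75.3% of all small RNAs that were higher. These are counts of means and carry no test.

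Of 43 predicted miRNAs tested, 23 were higher and 18 lower (53.5% and 41.9%), beside 33.2% and 46.3% over all small RNAs. They are listed only from 10 reads, so a listed 0 was taken to allow up to 9 reads per library, an assumption under which folds against such libraries are lower bounds. The sequence of novel_mir69 (precursor on NC_035445.1, 181723914 to 181724057 on the + strand) had 0 reads in each library at day 7 and 875, 734 and 638 at day 37, with 430, 405 and 307 at day 22, and was at least 93.6-fold higher at day 37 (edgeR adjusted p = 2.7e-06). Of the named rises, novel_mir92 (at least 18.5-fold) was listed at 0 at day 22 as well, with 222, 131 and 86 reads at day 37. The rise of novel_mir60 was 8.94-fold, from 68.8 ± 6.28 CPM at day 7 to 615 ± 128 at day 37. For novel_mir1 the rise was at least 13.2-fold, on 14, 11 and 0 reads at day 7 and 169, 135 and 98 at day 37. For novel_mir8, at 58, 0 and 10 reads at day 7 and 619, 338 and 244 at day 37, the log2 change of 4.30 became 6.46 without day 7 replicate 1, the library that held most of its early reads.

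The largest fall among predicted miRNAs was novel_mir22 (precursor on NC_035437.1, 34348343 to 34348478 on the + strand), with 382, 287 and 438 reads at day 7 and 0 in each library at day 37, at least 36.7-fold lower (edgeR adjusted p = 1.1e-04). At day 22 it had 12 reads in 1 library and 0 in the others, so most of its loss came before that day. The opposite timing was seen in novel_mir25, with 88, 86 and 128 reads at day 7, 109, 112 and 102 at day 22 and 0 at day 37, at least 9.96-fold lower. For novel_mir84 and novel_mir82, both at 0 in every day 37 library, the falls were at least 27.7-fold and 10.9-fold. The more abundant novel_mir57 had 1250, 1317 and 1134 reads at day 7 and 60, 75 and 80 at day 37, a 15.5-fold fall, and novel_mir71 was at least 9.07-fold lower. The sources used here do not give the build of the precursor positions. In length, novel_mir1, novel_mir57 and novel_mir71 are 30 nt, novel_mir8 29 nt, novel_mir92 28 nt and novel_mir69 25 nt. Of the others named here, novel_mir22 and novel_mir25 are 24 nt, novel_mir82 22 nt, and novel_mir60 and novel_mir84 20 nt. In sets of overlapping sequences, novel_mir60 stands with the more abundant siRNA novel_sir5290, novel_mir8 with novel_sir9950 and novel_mir57 with novel_sir12074. Such entries are not separate observations from those siRNAs. Whether any predicted miRNA or siRNA is a fragment of ribosomal or transfer RNA was not tested here. The predicted miRNAs novel_mir33, novel_mir77, novel_mir34 and novel_mir78 are not separate observations, since they share the 15 bases in capitals, and their rises came together.
novel_mir33: CCGTTCCAAGTTGTGagttg
novel_mir77: gcttgcCCGTTCCAAGTTGTGag
novel_mir34: gcCCGTTCCAAGTTGTGagttg
novel_mir78: cacaagctggcttgcCCGTTCCAAGTTGTG
Their summed reads went from 257, 322 and 264 at day 7 to 1600, 1865 and 1835 at day 37, which is 7.02-fold in CPM.

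Direction among siRNAs followed length. Of 2500 tested siRNAs of 21 nt, 1123 were higher and 695 lower (44.9% and 27.8%), and of 1572 of 22 nt, 812 were higher and 471 lower (51.7% and 30.0%). Of 241 siRNAs of 23 nt, 44 were higher and 153 lower (18.3% and 63.5%), and of 2521 of 24 nt, 215 were higher and 1927 lower (8.53% and 76.4%). Over all small RNAs the shares were 33.2% and 46.3%. The few longer entries, 25 to 30 nt, were higher in 9 of 10 cases. The majority direction at 21 and 22 nt depended on the scaling. With library totals alone the calls became 689 higher and 1047 lower at 21 nt, and 622 and 642 at 22 nt. With totals that leave out structural RNA they were 790 and 950 at 21 nt, and 666 and 591 at 22 nt. At 24 nt the lower calls were the majority under both, with 128 and 135 higher.

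The siRNA reads were held by fewer sequences at day 37. The 10 most abundant siRNAs of a library took 10.3% to 11.1% of its siRNA reads at day 7 and 16.8% to 17.8% at day 37, and 287 to 306 sequences made up 50% of the siRNA reads at day 7 against 115 to 117 at day 37. Libraries of the days did not overlap in either measure. The number of siRNAs listed above 0 was 5957 to 6108 at day 7 and 4622 to 4832 at day 37, despite more reads in small RNA entries at day 37.

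Many of the abundant siRNAs overlap one another. Joining sequences that share an exact run of 16 bases on either strand put 4278 of 7780 siRNAs and predicted miRNAs into 1280 sets, and the other 3502 stood alone. In 906 sets at least 2 members passed the test, and in 832 of these all passing members went in 1 direction, 382 higher and 450 lower. Members of a set overlap in sequence and may share a source, so these counts are not independent evidence per sequence. The 10 sets with most reads, 133 sequences, held 8.98% of small RNA reads at day 7 and 18.3% at day 37.

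The set with most reads is the one printed first above. Its 15 sequences had 8450, 8819 and 7647 reads at day 7 and 184086, 255372 and 225958 at day 37, which is 29.6-fold in CPM, or 0.367% and 5.72% of the small RNA reads. All 13 tested members were higher. Its leading member novel_sir17151, 22 nt long, had 4131, 4181 and 3435 reads at day 7 and 95816, 122725 and 110658 at day 37 (log2 4.96, SE 0.12, edgeR adjusted p = 9.69e-09). The 21-nt form novel_sir11739, which lacks the last base, had 3309, 3602 and 3259 reads at day 7 and 61861, 88270 and 78664 at day 37 and rose 24.98-fold. Day 22 lay between, at 43954, 42318 and 48676 reads for novel_sir17151. In a further set, 3 siRNAs of 21 nt share a common stretch, in capitals, and rose 9.57-fold to 14.2-fold.
novel_sir10099: cacgatCCTAACACTTCACCG
novel_sir9568: CCTAACACTTCACCGgaccat
novel_sir9617: acgatCCTAACACTTCACCGg
The most abundant of these, novel_sir10099, went from 1755, 1751 and 1724 reads to 15221, 20494 and 19492, with no overlap.

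Not all of the abundant siRNAs followed. The 21-nt novel_sir15071 had 45127, 33386 and 43442 reads at day 7 and 37634, 34587 and 32223 at day 37, overlapped between the days and did not pass (log2 -0.06, SE 0.16, edgeR adjusted p = 0.744), although at day 22 it had 109004 to 120487 reads. With library totals alone novel_sir15071 was called lower (log2 -1.001, edgeR adjusted p = 1.71e-04), and with totals without structural RNA too, at -0.77. The 22-nt novel_sir14147 rose 1.52-fold (log2 0.61, SE 0.08, edgeR adjusted p = 1.57e-04), but was at -0.33 with library totals alone. The 21-nt novel_sir8790 had 15158, 16698 and 18078 reads at day 7 and 49109, 64598 and 55654 at day 37 and rose 3.78-fold, and the 22-nt novel_sir7416 rose 6.75-fold.

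**Figure D3:**
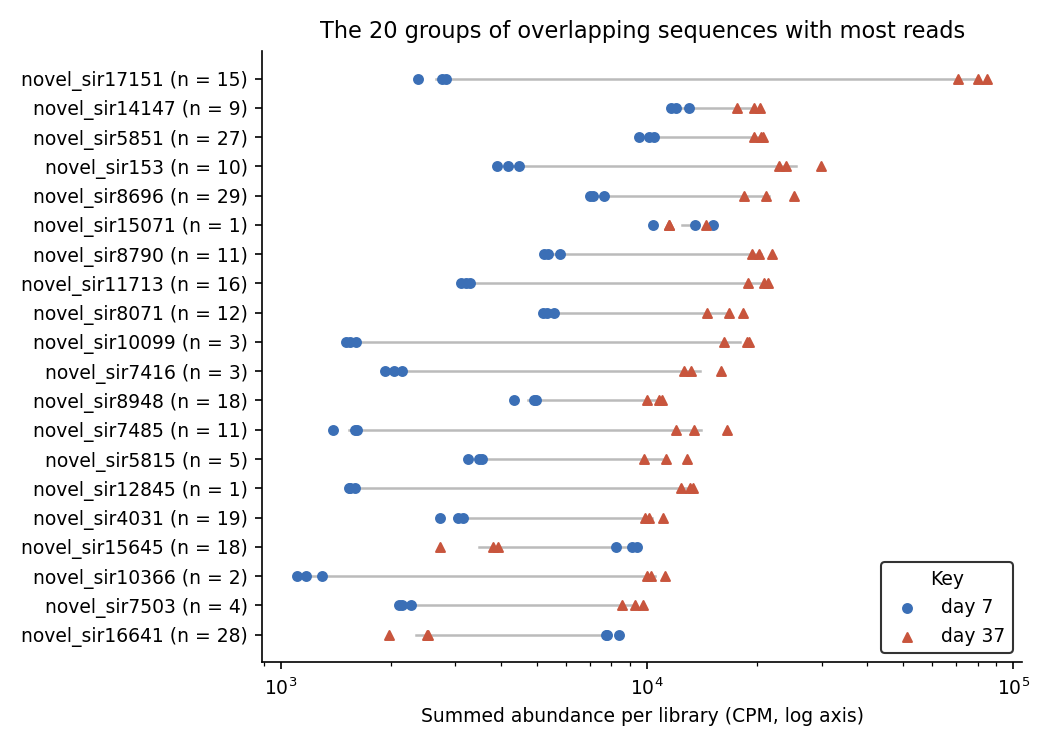
Summed CPM per library (log axis) of the 20 sets of overlapping sequences with most reads, each named by its most abundant member, with n the number of sequences, circles for day 7 and triangles for day 37. The set of novel_sir17151 lies far to the right at day 37, and novel_sir15071 overlaps between the days.

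The largest single changes at 21 and 22 nt ran from few or no listed reads to many and the reverse. The 21-nt novel_sir8703 had 13, 15 and 0 reads at day 7 and 3368, 3592 and 3225 at day 37, at least 307-fold higher. The 21-nt novel_sir1016 had 0 reads in each library at day 7 and 1718, 2089 and 1540 at day 37, at least 221-fold higher, and the 22-nt novel_sir14422 was at least 165-fold higher. Each had intermediate day 22 reads, such as 617, 548 and 704 for novel_sir1016. Among the falls, the 21-nt novel_sir839 had 3381, 3412 and 3374 reads at day 7 and 12, 34 and 18 at day 37, a 145-fold fall (log2 -7.16, SE 0.23, edgeR adjusted p = 3.37e-08). The 22-nt novel_sir7554 had 1280, 1357 and 1424 reads at day 7 and 0 in each library at day 37, at least 134-fold lower, and belongs to a set of 25 overlapping sequences, all tested and all lower. In that set 16 sequences are 24 nt long and 3 are 22 nt long. The set summed to 9606, 9906 and 9947 reads at day 7 and 34, 33 and 45 at day 37. The 22-nt novel_sir3293 and novel_sir17697 were 119-fold and 113-fold lower. The other siRNAs chosen for size were novel_sir9603, novel_sir8475 and novel_sir5239, at least 139-fold, 158-fold and 154-fold higher, and novel_sir801 and novel_sir18000, at least 141-fold and 133-fold lower.

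The 24-nt siRNAs were mostly lower at day 37. Their median log2 ratio of CPM, with listed zeros at 9 reads, was -1.49, against 0.39 at 21 nt, 0.70 at 22 nt and -0.32 over all small RNAs. Of the 1927 that were lower, 1147 were listed at 0 in all 3 day 37 libraries, beside 1777 of the 3304 lower ones over all small RNAs. Entries at 0 on day 37 passed the filter on low counts through the other days alone. Day 22 means lay between the days for 95.2% of the lower ones, beside 88.1% of all small RNAs that were lower. Those with A as first base were lower in 1685 of 2096 cases and higher in 113 (80.4% and 5.39%), and those with another first base were lower in 242 of 425 and higher in 102 (56.9% lower). The medians with zeros at 9 reads were -1.56 and -0.90. At a mean of at least 20 CPM over both days, 602 of 771 siRNAs with A and 133 of 230 without were lower (78.1% and 57.8%), and below that level 1083 of 1325 and 109 of 195 (81.7% and 55.9%). So the order of both shares was the same on either side of that level. At 23 nt the gap was similar, with 78.7% of those with A lower and 54.6% of the others. At 21 and 22 nt the shares lower differed less with the first base, 28.8% with A and 27.2% without at 21 nt, and 31.2% and 29.5% at 22 nt. These counts carry no test of the difference.

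In reads, the part of 24-nt siRNAs that begin with A went from 77.8% ± 0.174 to 69.02% ± 0.998 (SD, n = 3), and the part with C from 13.2% ± 0.175 to between 24.3% and 25.7% in the day 37 libraries. At 22 nt the part with U went from 19.7% ± 0.330 to 27.3% ± 0.474 and the part with C from 46.4% ± 0.268 to 39.3% ± 0.780. At 21 nt the part with C went from 42.8% ± 0.487 to 48.8% ± 0.362. The permutation test (exact, two-sided) gave p = 0.1 for each of these, its lowest possible value, and 0.109 adjusted over 12 shares. The 22-nt shares rested on abundant entries. With each entry counted once, the part with C was 48.1% at day 7 and 50.4% at day 37, against its direction in reads. For U, without the 10 most abundant, the difference was -3.81 percentage points in place of 7.60, and with each entry counted once it was -1.64 percentage points. Among 24-nt siRNAs, the median GC content was 50.0% in those that were higher and 45.8% both in those that were lower and in those not called.

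**Figure D4:**
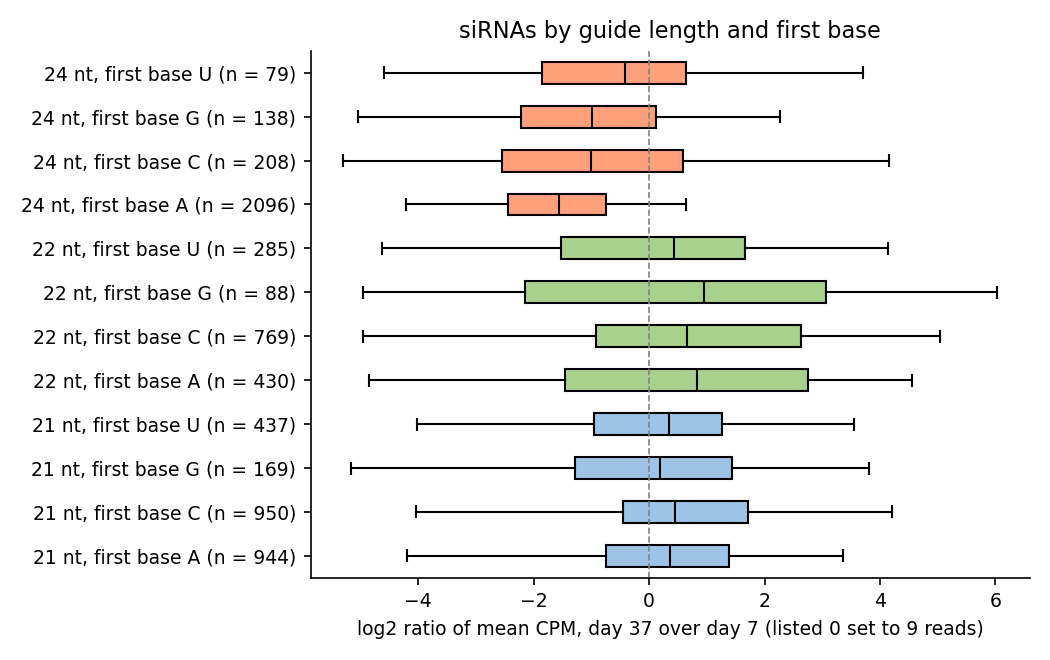
Log2 ratio of mean CPM, day 37 over day 7, for tested siRNAs by length and first base, with listed zeros set to 9 reads. Boxes span the quartiles with the median as a line. Whiskers end at a low and a high percentile, and values beyond them are not drawn. The box of 24-nt siRNAs with A lies wholly below 0.

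The largest 24-nt falls belong to sets of overlapping sequences. The set of novel_sir9492 and novel_sir9485, 43 sequences of which 35 are 24 nt long, had 19456, 20391 and 19922 reads at day 7 and 45, 44 and 18 at day 37, and all 42 tested members were lower. Its CPM was 6363 ± 169.8 at day 7 and 12.8 ± 5.68 at day 37, in which zeros are taken as 0. The single siRNA novel_sir9492 had 4773, 4865 and 4810 reads at day 7 and 22, 27 and 0 at day 37, at least 224-fold lower (edgeR adjusted p = 1.79e-06), and novel_sir9485 was at least 262-fold lower. The siRNA novel_sir4547, from a set of 11 that were all lower, had 2275, 2744 and 2550 reads at day 7 and 0, 12 and 0 at day 37, at least 226-fold lower. By day 22 the set of novel_sir9492 was already down to 1183, 1180 and 1093 reads.

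A minority of 24-nt siRNAs rose. The largest rise was that of novel_sir15189, with 40, 44 and 51 reads at day 7 and 11657, 15775 and 13620 at day 37, 339-fold (log2 8.40, SE 0.12, edgeR adjusted p = 3.3e-09). All 6 members of its overlapping set were higher, and they include lengths 20, 21, 22 and 24. The siRNA novel_sir5424 had 0 reads in each library at day 7 and 917, 1283 and 1392 at day 37, at least 148-fold higher, and its set is otherwise made of 22-nt sequences. The next, novel_sir18526, was at least 98.1-fold higher. Among the most abundant 24-nt siRNAs, novel_sir6998 rose 7.79-fold and novel_sir15333 8.52-fold. The third, novel_sir11343, had 8466, 6263 and 3730 reads at day 7 and 8622, 8523 and 8792 at day 37 and did not pass, with day 7 libraries more than 2-fold apart (log2 0.64, SE 0.38, edgeR adjusted p = 0.153).

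Some small RNAs had listed reads at 1 end alone. At 0 in all 3 day 37 libraries and at 10 reads or more in all 3 day 7 libraries were 1726 small RNAs, which held 8.79% ± 0.263 of the small RNA reads at day 7. Of these, 1133 were 24-nt siRNAs, and 904 were at 0 in all day 22 libraries too. The 1133 are 39.3% of the listed 24-nt siRNAs, beside 21.1% of all listed small RNAs. The reverse pattern was found for 662, which held 2.42% ± 0.150 of the reads at day 37. Of those, 366 were 22-nt siRNAs, 241 were 21-nt and 35 were 24-nt, and 48 were at 0 in all day 22 libraries. That is 21.5% of the listed siRNAs at 22 nt, 8.70% at 21 nt and 1.21% at 24 nt. Over all listed small RNAs it is 8.08%, close to the share at 21 nt. At 30 reads or more, 1037 were found at day 7 alone and 426 at day 37 alone. For siRNAs and predicted miRNAs such a 0 was taken to allow up to 9 reads, so it is no sign of absence.

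Fragments of structural RNA were mostly higher at day 37. Of 103 tested models, 67 were higher and 8 lower, beside 33.2% and 46.3% over all small RNAs, and their median log2 change was 2.44. All 9 tested ribosomal models were higher. The small subunit rRNA (RF01960) had 60676, 58602 and 51257 reads at day 7 and 477266, 362886 and 381341 at day 37, an 8.06-fold rise (log2 3.01, SE 0.23, edgeR adjusted p = 4.12e-06), and 5.8S rRNA (RF00002) rose 11.7-fold. The large subunit rRNA (RF02543) had 8104, 5928 and 4389 reads at day 7 and 128777, 65776 and 47815 at day 37, a 14.9-fold rise, with log2 3.90 and 3.30 without day 37 replicate 1. That library also stood apart in other models. For 5S rRNA (RF00001) there were 32, 37 and 13 reads at day 7 and 1490, 216 and 169 at day 37, with log2 4.74 and 2.91 without it. Transfer RNA (RF00005) had 132, 139 and 74 reads at day 7 and 13234, 1792 and 2252 at day 37, with log2 5.87 and 4.24 without it. Both calls held without that library, at adjusted p = 0.00124 and 2.12e-05 in edgeR.

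Small nucleolar RNAs, which guide modification of ribosomal RNA, were higher in 39 of 41 tested models, beside 33.2% over all small RNAs. The model RF01506, annotated as the fungal A. fumigatus snoRNA Afu_294, rose 31.95-fold. It had 118, 123 and 113 reads at day 7 and 3962, 2612 and 3438 at day 37. Whether these reads come from sunflower was not tested. The snoR86 model (RF00303) had 3, 5 and 0 reads at day 7 and 231, 201 and 222 at day 37 (log2 6.45, SE 0.40, edgeR adjusted p = 1.11e-06). Plant U3 (RF01847), which acts in the cleavage of precursor rRNA, was the 1 that fell, with 406, 356 and 417 reads at day 7 and 262, 255 and 219 at day 37 (log2 -0.52, SE 0.14, edgeR adjusted p = 0.00819). With upper quartile factors RF01847 no longer passed, at -0.25 (edgeR adjusted p = 0.142). Of the spliceosomal RNAs, U6 (RF00026) was called higher at log2 0.62 on 3067, 3111 and 3073 reads at day 7 and 4087, 4573 and 4107 at day 37, but was at -0.31 with library totals alone. U2 (RF00004) was at 0.74 and no longer passed without day 7 replicate 2 or 3, at 0.65 and 0.54, and was at -0.19 with library totals alone. U1 (RF00003) had 34, 23 and 6 reads at day 7 and 700, 149 and 110 at day 37, with log2 4.13 and 2.71 without day 37 replicate 1.

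Of 17 tested models of other Rfam RNAs, 9 were higher and 4 lower, beside 33.2% and 46.3% over all small RNAs. The transfer-messenger RNA model (RF00023), an RNA that frees stalled ribosomes in bacteria, rose 15.1-fold (edgeR adjusted p = 5.73e-05). It had 3666, 3750 and 3192 reads at day 7 and 64148, 39072 and 37992 at day 37. The related betaproteobacterial model RF01850 had 1464, 1457 and 1285 reads at day 7 and 8623, 2487 and 2517 at day 37, and its log2 change of 1.90 became 0.94 without day 37 replicate 1 and did not pass, nor did it without any 1 day 7 library. The signal recognition particle RNA of plants (RF01855), part of the machinery that brings ribosomes to the endoplasmic reticulum, rose 8.31-fold. Among the falls, RF02182 went from 39, 44 and 34 reads at day 7 to 2, 4 and 8 at day 37. RF00180 went from 126, 150 and 142 reads at day 7 to 14, 23 and 14 at day 37. Among Rfam precursor models, MIR169_2 (RF00645) rose 6.15-fold, MIR164 (RF00647) was 4.42-fold lower and mir-393 (RF02516) was listed at 0 in every day 37 library after 52, 37 and 39 reads at day 7. These share their direction with the family sums of miR169, miR164 and miR393, and may share reads with them. MIR159 (RF00638) rose 6.97-fold, against 1.49-fold for the miR159 family, and mir-166 (RF00075) was not called. The share of ribosomal fragments moved with the scale of all other entries, and its part in their changes was not tested beyond the totals without structural RNA given above.

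**Figure D5:**
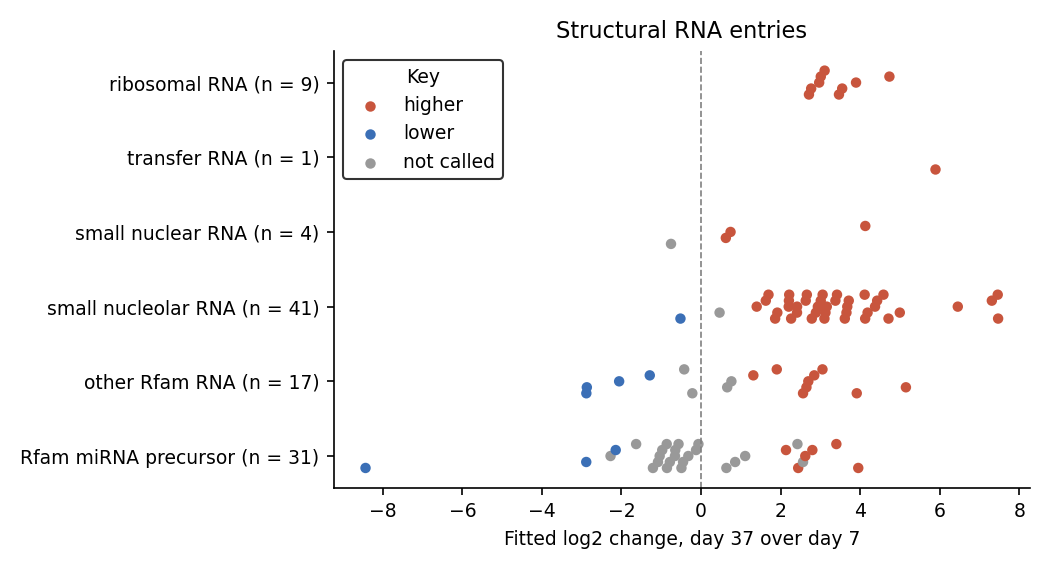
Fitted log2 change, day 37 over day 7, of the tested structural RNA models by class, coloured by call. All ribosomal points and nearly all small nucleolar points lie above 0, while most precursor models of miRNAs were not called.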

How the data were processed

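The deposited table gives whole-number counts of reads per small RNA entry and library, which per the file headers carry no normalization by the authors. The deposited sequence and precursor position files hold other values (guide and mature sequences, genome positions), used as given. Per the submitters' processing notes Bowtie2 was used. The sources used here do not give its version or role, the genome build, the counting, any filter or the use of molecular identifiers. Per the labels, gel bands of 18 to 30 nt were sequenced from total RNA, 3 libraries per day. A further 9 per-library columns headed TPM were not used.

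Mature and hairpin entries of known miRNAs were summed by family number, and the 3 genome totals were left out. The test was edgeR's quasi-likelihood test (version 4.0.16, R 4.3.3), with TMM factors and filterByExpr by day, fitted to all 9 libraries jointly. The contrast was day 37 minus day 7, and day 22 entered no contrast. Benjamini-Hochberg adjustment ran over all 7132 tested small RNAs (threshold 0.05), and the fitting was tested on simulated data. CPM is reads per 1000000 of library size times TMM factor. Values are mean ± SD of 3 libraries, and folds are ratios of mean CPM. No siRNA or predicted miRNA has a count from 1 to 9, so each listed 0 was set to 9 reads in folds. The fitted change of an entry at 0 on 1 day is no bound. Of the siRNA entries, 345 share a guide with another entry, and the 3 siRNAs and 1 predicted miRNA with no sequence were counted, not named.

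Shares of reads were compared by exact two-sided permutation tests. The 7 miRNA lists follow target roles: growth phase (miR156 with miR172), auxin (miR160, miR390, miR393 and miR167), development (the 9 families miR159, miR164, miR166, miR319, miR169, miR170, miR171, miR396 and miR394), nutrients (miR395 and miR397 to miR399), silencing proteins (miR403, miR162 and miR168), phased siRNA triggers (miR858) and other conserved families (miR477, miR530). Members of the lists that the table does not name, such as miR165, were not analysed here. In the last list miR530 was lower (log2 -1.84), on 7, 7 and 11 reads at day 7 and 2, 2 and 2 at day 37. All of these lay in its hairpin entry. The miR477 family did not pass, and 92.9% of its reads were in hairpin entries. Members and lists were chosen with earlier results of these data known.

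Named were all families of the lists with a mean of at least 10 CPM on 1 of the days, and, among entries that passed with no overlap, the 5 largest rises and falls of other families, the 6 of predicted miRNAs, the 3 per siRNA length (21, 22, 24) and the 2 per structural class, by the CPM ratio with zeros at 9 reads. The 3 most abundant entries per siRNA length and structural class were added. The alternatives were other scalings, other filters on low counts, DESeq2 1.42.0, the replicate number as a block, mature or single entries, all reads as denominator, and leaving out each library.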

Additional observations from a re-analysis of the deposited data

How the results depend on the processing

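Of 1683 repeats over named small RNAs, 1596 kept direction and side of the threshold, 23 gained and 45 lost a call and 19 changed sign. Where no construction below shows it, the cause was not tested. Library totals alone gave 9 families higher and 18 lower, 689 and 1047 at 21 nt, and 622 and 642 at 22 nt. They also gave 128 higher at 24 nt and 13 structural models lower. They turned miR159 (-0.36), miR168 (-0.16), miR390 (-0.0818), miR394 (-0.0186), novel_sir14147 (-0.33), novel_sir11343 (-0.29), RF00026 (-0.31) and RF00004 (-0.19). Totals without structural RNA gave 16 families lower and 135 at 24 nt higher, and turned miR159 (-0.14), novel_sir14147 (-0.11), novel_sir11343 (-0.0668) and RF00026 (-0.0917). The upper quartile turned miR858 (0.12), novel_sir15071 (0.21) and RF00075 (0.21), none past the threshold, and ended the calls of miR166 (-0.028), miR172 (-0.25), miR398 (-0.26) and RF01847 (-0.25). Mature entries alone turned miR166 (0.81), and single entries, being more numerous, gave 76 higher and 45 lower.

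As differences in share of all reads, 22-nt siRNAs (0.923 percentage points), 23-nt siRNAs (0.00116) and small nuclear RNA (0.00553) were higher at day 37. Without the 10 most abundant entries the first-base differences were -4.68 points for U at 21 nt, 1.54 for A and -3.81 for U at 22 nt. With each entry counted once they were -0.583 for U at 21 nt, 2.34, -0.692 and -1.64 for C, G and U at 22 nt, and 2.80 and 1.47 for G and U at 24 nt. At 30 reads, 1037 and 426 small RNAs had listed reads at 1 end alone.

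Leaving out 1 library gave 2245 to 2372 small RNAs higher and 3231 to 3325 lower, 12 to 14 and 8 to 12 families, and 196 to 212 and 1873 to 1950 siRNAs of 24 nt. It turned novel_sir15071 (-0.25 to 0.00782, the latter without day 7 replicate 1) and RF00075 (0.0726 without day 7 replicate 2, 0.0857 without day 37 replicate 2). With the replicate number as a block, 2221 were higher and 2782 lower. Same-numbered libraries did not deviate together (correlations 0.04, -0.03 and 0.05), so the numbers were not taken to pair libraries, although the third library of each day had the fewest reads in the animal precursor models. The depth of small RNA reads limits entries near 10 reads.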

Other observations

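Rfam models of animal miRNA precursors (14 models, among them mir-26, mir-9, mir-124 and mir-451) also collected reads. None of these models is named above, but they were not taken out of the structural RNA models, the shares or the library sizes. Their summed reads were 857, 782 and 180 at day 7, 680, 717 and 182 at day 22 and 654, 361 and 150 at day 37. The third library of each day had the fewest. The mir-451 model went the other way at day 7, with 30, 29 and 123 reads, and had 45, 222 and 35 at day 37.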
